A study of Mus musculus with 2 samples.

Results

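Expression of 10 genes of death receptor signalling was compared between 2 RNA-seq libraries of mouse embryonic stem cells. They were taken as a fixed list by gene symbol: the receptors Fas, Tnfrsf10b and Tnfrsf1a, the adaptors Fadd, Tradd and Ripk1, caspase 8 (Casp8) and its regulator Cflar, and the PIDDosome adaptors Pidd1 and Cradd. All 10 were found among 55414 gene identifiers, and all 10 were among the 14871 genes called measured here, those whose CPM (read counts scaled to library size) averaged 1 or more over both libraries. Fas passed that level only through the Adriamycin library. The cells were of the wild-type line R1E, a pluripotent line grown in serum medium with leukemia inhibitory factor. One library came from untreated cells, labelled 0 h, and the other from cells given 0.5 µM Adriamycin (doxorubicin, a drug that leaves breaks in DNA by trapping topoisomerase II) for 8 h. Each condition had 1 library, so no test between conditions was possible and each value describes these libraries. Culture, time in culture and drug cannot be told apart.

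Death receptors are cell surface proteins of the TNF receptor family that carry a death domain on the inside of the membrane. Once a ligand binds, the adaptor FADD joins the receptor or a second complex built on TRADD and RIPK1, and FADD recruits caspase 8, which starts apoptosis unless the caspase-like protein cFLIP (the product of Cflar) holds it back. PIDD1 and CRADD use death domains too, but build the PIDDosome, a platform that activates caspase 2. Fas, Tnfrsf10b and Pidd1 are known to be activated by p53 after DNA damage.

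Depth was 41820999 reads without and 38561292 reads with Adriamycin. Embryonic stem cell markers were present, with all 8 listed ones measured, although 5 of them were at least 2-fold lower with Adriamycin and their summed level was 6379 CPM untreated and 3602 CPM with Adriamycin. Of 12 fibroblast markers, listed for feeder cells, 8 were measured, while Col3a1, Dcn, Lum and Postn had 0 reads in both libraries. The measured ones included Pdgfra (787 and 720 reads), Pdgfrb (636 and 971) and Thy1 (484 and 448). The summed fibroblast level was 1216 and 931 CPM, most of it from Fn1 (1152 and 782 CPM), while Col1a1, Fbln2 and Bgn were at least 2-fold higher with Adriamycin. Of 8 blood markers 3 were measured, and 1 of these, Cd3e, was at least 2-fold higher (47 and 97 reads). The 8 summed to 40.7 and 46.0 CPM, most of it from Cd68 (36.4 and 39.5 CPM). Ptprc had 0 reads in both libraries, and Adgre1 and Lyz2 had 0 untreated and 2 and 4 with Adriamycin. The part of the markers that differed in the results on the members was not tested. In bulk RNA, fewer cells of a type and less RNA per cell cannot be told apart.

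Fas and Pidd1 were the members with the largest log2 ratios, 6.08 and 2.26. Of the measured genes, 1958 had a larger ratio than Tnfrsf1a and 2574 a larger one than Tnfrsf10b. Fas, Tnfrsf1a and Pidd1 were higher with Adriamycin by 2-fold or more, Tnfrsf10b lay just under that size, and no member was at least 2-fold lower. Among all measured genes 17.0% were at least 2-fold higher and 6.95% at least 2-fold lower. The 3 of 10 members that were higher are too few to set against that background. The median log2 ratio (Adriamycin over untreated) was 0.65 over the 10 members and -0.03 over all measured genes. The adaptors between receptor and caspase, and caspase 8 itself, had log2 ratios between -0.58 and 0.67.

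**Figure D1:**
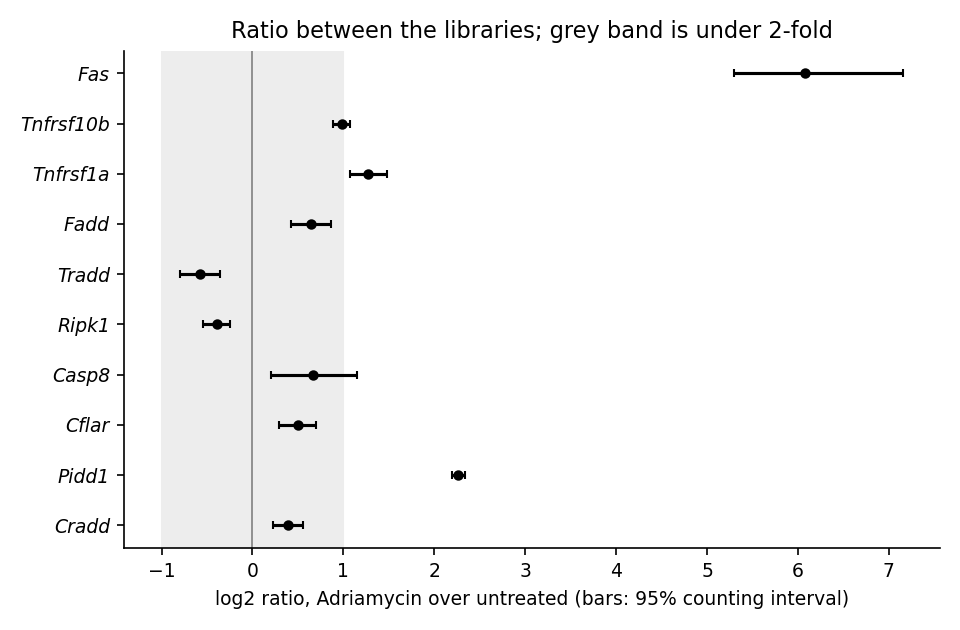
Log2 ratio of the Adriamycin over the untreated library for each of the 10 members (x axis), with bars for the exact 95% counting interval and a grey band for ratios under 2-fold in either direction. Fas (6.08), Pidd1 (2.26) and Tnfrsf1a (1.28) lie to the right of the band, Tnfrsf10b (0.98) at its edge, and Tradd (-0.58) and Ripk1 (-0.39) to the left of zero.

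The promoters of Fas and Pidd1, the members with the largest ratios, are shown beside that of Casp8, the member with the lowest level in the Adriamycin library. The RefSeq promoter table, on build GRCm38.p6, holds 250 bases before and 50 after a gene's start, and 8 of the 10 members matched. Tnfrsf10b and Tradd had no entry. Capitals mark GGGCGG (the GC box) or its reverse complement in Fas and Pidd1, and CCAAT in Casp8. The windows are chr19:34290409-34290708 on the plus strand for Fas, chr7:141443976-141444275 on the minus strand for Pidd1 and chr1:58802252-58802551 on the plus strand for Casp8. On the same build, the RefSeq start of Casp8 lies 7128 bases inside the gene as GENCODE M21 annotates it, and the first GENCODE start is not the one shown, while those of Fas and Pidd1 lie within 7 bases of the annotated gene start.
Fas: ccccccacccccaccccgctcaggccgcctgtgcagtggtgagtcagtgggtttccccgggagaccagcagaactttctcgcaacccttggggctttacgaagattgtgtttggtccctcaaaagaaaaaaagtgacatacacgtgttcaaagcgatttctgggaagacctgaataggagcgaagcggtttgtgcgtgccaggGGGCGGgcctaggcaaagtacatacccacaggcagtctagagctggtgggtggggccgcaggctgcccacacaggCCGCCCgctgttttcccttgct
Pidd1: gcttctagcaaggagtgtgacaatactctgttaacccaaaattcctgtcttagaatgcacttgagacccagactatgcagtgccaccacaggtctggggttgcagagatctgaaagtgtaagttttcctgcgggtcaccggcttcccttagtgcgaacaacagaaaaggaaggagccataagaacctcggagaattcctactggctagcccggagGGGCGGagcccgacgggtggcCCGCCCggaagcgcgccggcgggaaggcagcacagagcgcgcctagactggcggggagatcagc
Casp8: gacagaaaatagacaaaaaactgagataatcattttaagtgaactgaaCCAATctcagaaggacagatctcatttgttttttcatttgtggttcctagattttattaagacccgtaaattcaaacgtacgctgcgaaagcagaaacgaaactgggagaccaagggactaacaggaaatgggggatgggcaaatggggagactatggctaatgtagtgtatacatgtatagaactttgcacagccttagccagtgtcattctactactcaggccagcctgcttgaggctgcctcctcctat

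Searched on both strands, GGGCGG occurred in the windows of 4 of the 8 matched members, Fas, Fadd, Ripk1 and Pidd1, and in 35.7% of all 32851 promoters in the table. Ripk1 had 2 windows, the second with its start 511 bases inside the gene, so members are counted per gene and the shares per promoter. Fas and Pidd1 held 2 matches each, without overlap. CCAAT was found in Casp8 alone of the 8 (37.4% of all promoters), and TATAAA in Cflar and Cradd (13.6% of all promoters), where the matches in Cflar overlap each other on opposite strands. The p53 half-site consensus, without mismatches, was in 0 of the 8 windows and in 8.36% of all promoters. That says only that these letters are not in these windows. The windows of Casp8, Cflar and Cradd had GC contents of 42.0%, 45.0% and 40.3%, below the median of 52.7% over all promoters, and the other member windows had 57.0% to 67.0%. The low-GC windows belonged to 3 members with log2 ratios of 0.39 to 0.67, and the GC-rich ones to members from -0.39 (Ripk1) to 6.08 (Fas). The window of Casp8 lies inside the gene, so its GC content is not that of the first annotated start. The same holds for Tnfrsf1a (57.0%), whose RefSeq start lies 361 bases inside the gene. 

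Among the receptors, Fas went from near silence to a level per exon length close to that of the TRAIL receptor gene. Fas (ENSMUSG00000024778, chromosome 19, 34268066 to 34305172, GRCm39), the receptor of Fas ligand, had 11 reads untreated and 793 with Adriamycin. These are 0.277 and 19.6 CPM, 67.7-fold higher, with a log2 ratio of 6.08 and a 95% counting interval of 5.30 to 7.15. Intervals here are exact and cover counting error only. They are too narrow, since the tables count mates of a pair as separate reads. With counts divided by 2 the interval of Fas was 5.04 to 7.91. Of the measured genes, 42 had a larger ratio.

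Tnfrsf10b (ENSMUSG00000022074, chromosome 14, 70004921 to 70021860), the death-domain receptor for the ligand TRAIL, had 1343 and 2701 reads. It was 1.97-fold higher with a log2 ratio of 0.98 (0.89 to 1.08), just under the 2-fold size, which lies inside its counting interval. Tnfrsf1a (ENSMUSG00000030341, chromosome 6, 125326325 to 125339447), TNF receptor 1, had 286 and 707 reads and was 2.42-fold higher, with a log2 ratio of 1.28 (1.08 to 1.48). With counts divided by 2 the lower end for Tnfrsf1a was 0.99, so that interval holds 2-fold. Of the 3 receptors, Fas and Tnfrsf1a reached 2-fold and Tnfrsf10b did not.

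**Figure D2:**
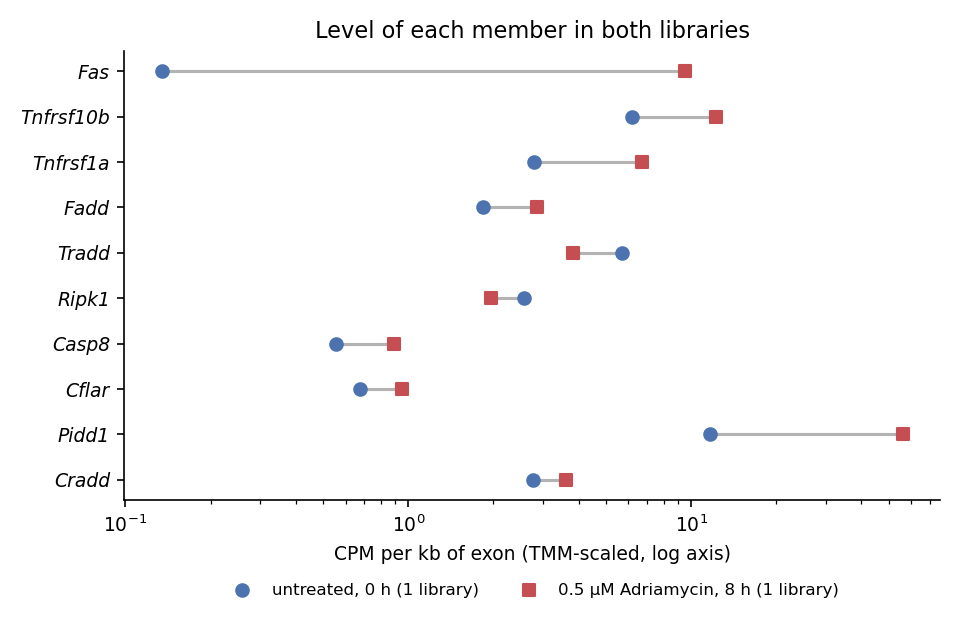
Level of each member as CPM per kb of exon (x axis, log scale) in the untreated (blue circle) and the Adriamycin library (red square), 1 library each. Fas moves from 0.134 to 9.48 and Pidd1 from 11.6 to 56.0, while Casp8 and Cflar stay below 1 in both libraries.

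On the scale of reads per exon length, used to compare levels of different genes, the balance of the receptors differed between the libraries. The length is that of all annotated exons of a gene, not of the transcripts present. Each comparison of levels between genes depends on it, and the intervals leave that out. In CPM, Tnfrsf10b was at 66.6 and Fas at 19.6 with Adriamycin. Untreated, Tnfrsf10b was 46.2-fold (25.7 to 92.7) above Fas. With Adriamycin it was 1.29-fold (1.19 to 1.40) above Fas. Tnfrsf10b was 2.23-fold (1.96 to 2.54) above Tnfrsf1a untreated and 1.82-fold (1.67 to 1.98) with Adriamycin. These ratios are taken within a library and do not depend on the scaling between libraries. The level of Fas per kb exceeded that of 3.1% of measured genes untreated and of 63.4% with Adriamycin.

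The adaptors that link receptors to caspase 8 did not move together. Fadd (ENSMUSG00000031077, chromosome 7, 144131055 to 144136200), which brings caspase 8 to the receptor, had 285 and 453 reads, giving a log2 ratio of 0.64 (0.42 to 0.86). Tradd (ENSMUSG00000031887, chromosome 8, 105984918 to 105991241), the adaptor of TNF receptor 1, had 424 and 289 reads, giving a log2 ratio of -0.58 (-0.80 to -0.36). Fadd was therefore the higher one and Tradd the lower one with Adriamycin, both under 2-fold. Per exon length, Tradd stood 3.11-fold (2.67 to 3.63) above Fadd untreated and 1.33-fold (1.15 to 1.55) with Adriamycin. Ripk1 (ENSMUSG00000021408, chromosome 13, 34186346 to 34221130), the kinase that decides between survival signalling and death at TNF receptor 1, had 852 and 662 reads, giving a log2 ratio of -0.39 (-0.54 to -0.24).

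Reads were counted without regard to strand, so exons shared with a gene on the opposite strand matter. Ripk1 shared 241 of its 8344 exonic bases with Serpinb6a, which had 2540 and 2093 reads (log2 ratio -0.31). Fadd shared 239 of its 3903 exonic bases with Faddos (5 and 7 reads), and Cradd shared 149 of 4759 with Gm48882 (2 and 6 reads). On the same strand, Ripk1 shared 511 bases with Gm17084, which had 0 reads in both libraries. The other 7 members shared no exonic base with another gene. The gene Plekhg6 lies 176 bases past the end of Tnfrsf1a and is read from the other strand. Its 189 and 2229 reads gave a log2 ratio of 3.53, and its part in the ratio of Tnfrsf1a was not tested.

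Caspase 8 and its inhibitor were low per exon length in both libraries. Casp8 (ENSMUSG00000026029, chromosome 1, 58834533 to 58886662), the initiator caspase of the pathway, had 64 and 104 reads, giving a log2 ratio of 0.67 with a wide interval of 0.21 to 1.15. With counts divided by 2 that interval ran from 0.01 to 1.36. Cflar (ENSMUSG00000026031, chromosome 1, 58750667 to 58798043), whose product cFLIP resembles caspase 8 without its protease activity, had 339 and 488 reads, giving a log2 ratio of 0.50 (0.29 to 0.70). Cflar and Casp8 are neighbours on the same strand, 36490 bases apart. Per exon length, Casp8 was at 0.83 of the level of Cflar untreated (0.62 to 1.08) and at 0.93 with Adriamycin (0.75 to 1.16). Both intervals hold equal levels, and the intervals of the 2 libraries overlap, so a difference in that balance was not detectable at this depth. Casp8 exceeded 12.9% of measured genes in level per kb untreated and 13.0% with Adriamycin.

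The PIDDosome adaptors parted. Pidd1 (ENSMUSG00000025507, chromosome 7, 141018026 to 141023938), which scaffolds the complex and was the member with the highest level in both libraries, had 2098 and 10277 reads. It was 4.80-fold higher, with a log2 ratio of 2.26 (2.20 to 2.33). Cradd (ENSMUSG00000045867, chromosome 10, 95010608 to 95159995), the adaptor that connects PIDD1 to caspase 2, had 522 and 699 reads, giving a log2 ratio of 0.39 (0.23 to 0.56). Per exon length, Pidd1 was 4.22-fold (3.84 to 4.66) above Cradd untreated and 15.5-fold (14.3 to 16.7) with Adriamycin. Casp2, the caspase of this complex, had 1327 and 1217 reads (log2 ratio -0.15, -0.27 to -0.04). Ankrd26, which brings PIDD1 to centrioles, had 1316 and 1882 reads (0.49, 0.39 to 0.59). Of the genes of this complex, Pidd1 alone reached 2-fold.

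The order of the members by level per kb of exon also differed between the libraries. Untreated, it ran Pidd1 (11.6 CPM per kb), Tnfrsf10b (6.19), Tradd (5.71), Tnfrsf1a (2.78), Cradd (2.76), Ripk1 (2.57), Fadd (1.84), Cflar (0.673), Casp8 (0.556) and Fas (0.134). Counting error did not separate Tnfrsf10b from Tradd, Tnfrsf1a from Cradd, Cradd from Ripk1 or Cflar from Casp8. With Adriamycin the order was Pidd1 (56.0), Tnfrsf10b (12.2), Fas (9.48), Tnfrsf1a (6.73), Tradd (3.82), Cradd (3.62), Fadd (2.86), Ripk1 (1.96), Cflar (0.950) and Casp8 (0.887). There, Tradd with Cradd and Cflar with Casp8 were the neighbours not separated by counting error. Fas went from the last place to the third, and the 3 receptors then stood directly behind Pidd1.

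**Figure D3:**
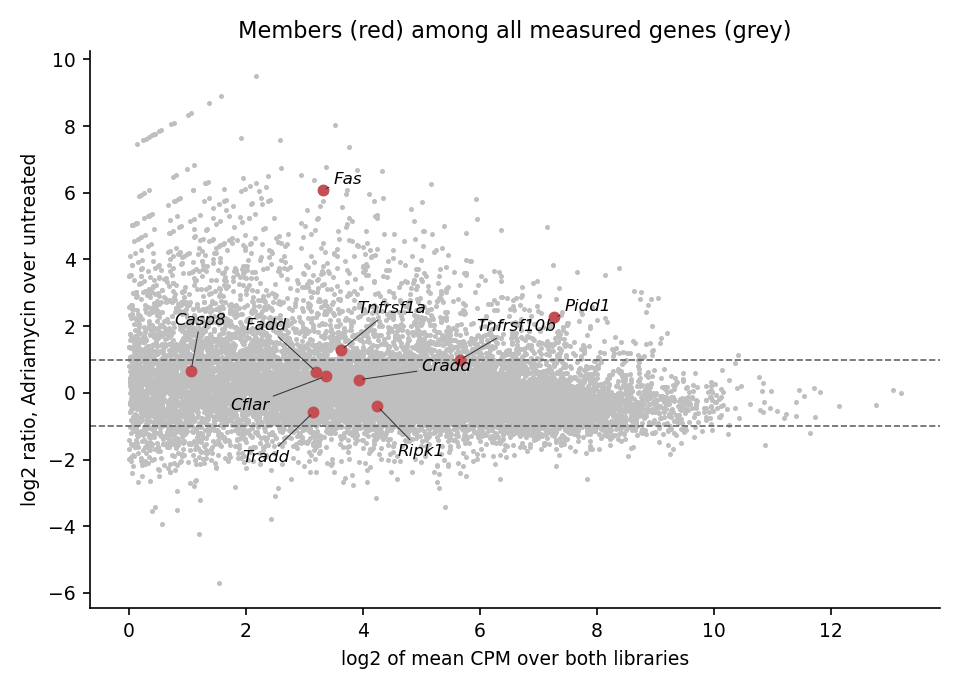
Log2 ratio (y axis) against log2 of the mean CPM over both libraries (x axis) for all 14871 measured genes (grey), with the 10 members in red and dashed lines at 2-fold. Fas lies far above the dashed lines, Pidd1 is the member with the highest mean level, and the remaining 8 lie within or near the dashed lines.

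The genes around the members were read from the same tables. Within 1 Mb on each side of Fas, 7 other genes were measured, 4 of them at least 2-fold higher and 0 lower, with a median log2 ratio of 1.15. None of the 7 had a ratio as large as that of Fas. Its nearest measured neighbours were Stambpl1 (120 and 70 reads, log2 ratio -0.80) and Lipa (226 and 673 reads, 1.54). Pidd1 had 50 measured genes in such a window, with a median of 0.14. Of these, 10 were at least 2-fold higher and 2 had a larger ratio than Pidd1. Over all measured genes 17.0% were at least 2-fold higher, and whether the windows of Fas and Pidd1 depart from that share was not tested. Slc25a22, which lies 221 bases past the end of Pidd1 on the same strand, had 1395 and 2992 reads (1.07). Tradd was at the other end, since 51 of the 59 measured genes in its window had a higher ratio. Of all 14871 measured genes, 12037 had a higher ratio than Tradd. Fbxl8, 39 bases from the start of Tradd on the opposite strand, was lower like Tradd, with 145 and 75 reads (-0.97).

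Genes most like Fas were sought by the distance between pairs of log2 CPM values, over these 2 libraries. The 4 nearest measured genes were Itgb2 (12 and 827 reads, distance 0.135), Fer1l4 (14 and 789, 0.335), Tmprss6 (15 and 767, 0.433) and Ankrd65 (14 and 655, 0.433). Their log2 ratios ran from 5.47 to 6.02. Itgb2 encodes an integrin of white blood cells and Tmprss6 a membrane protease. Likeness over 2 libraries is a description of both levels and no more.

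Other genes of the pathway, 86 in 9 lists, put the members in context. Of 75 measured ones, 19 were at least 2-fold higher with Adriamycin (25.3%) and 3 at least 2-fold lower, beside 17.0% and 6.95% of all measured genes. Their median log2 ratio was 0.21. Of the higher ones, Tnfrsf18, Tnfrsf23, Mlkl and Edaradd were under 1 CPM untreated and passed that level only through the Adriamycin library. Tnfrsf25, a lower one, passed only through the untreated library (1.96 CPM, and 0.666 with Adriamycin). The shares over all measured genes rest on the same filter. Of the genes for ligands, Fasl, Tnf, Lta, Tnfsf10 (TRAIL) and Tnfsf15 had 0 reads in both libraries, which allows up to 3 reads, or 0.0754 CPM untreated and 0.0740 CPM with Adriamycin. The ligand gene of each of the 3 receptors was therefore not detected. Eda, the ligand ectodysplasin, had 146 and 139 reads (log2 ratio -0.10).

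Of 3 other measured death receptors, 2 were at least 2-fold lower with Adriamycin and 0 higher. The remaining listed one, Edar, was under the level for measured genes, with 0 and 52 reads. Ngfr, the p75 neurotrophin receptor, had 3110 and 1245 reads, giving a log2 ratio of -1.35 (-1.44 to -1.25). Tnfrsf25 (DR3) had 78 and 27 reads (-1.54, -2.25 to -0.91), and Tnfrsf21 (DR6) 1454 and 943 (-0.65, -0.77 to -0.53). Of 10 measured TNF receptor family genes without a death domain, 6 were at least 2-fold higher and 0 lower, with a median of 1.25. The 3 with the largest ratios were Tnfrsf23, a decoy receptor for TRAIL (16 and 138 reads, 3.04), Tnfrsf18 (39 and 246 reads, 2.61) and Cd40 (45 and 214 reads, 2.21). Tnfrsf23 has close paralogs, which makes its count uncertain. Its paralog Tnfrsf22 had far more reads and was lower, with 1341 and 962 reads (-0.51, -0.63 to -0.39). Of Tnfrsf18, 414 exonic bases (27.2%) lie in Gm16008 on the opposite strand (45 and 59 reads).

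**Figure D4:**
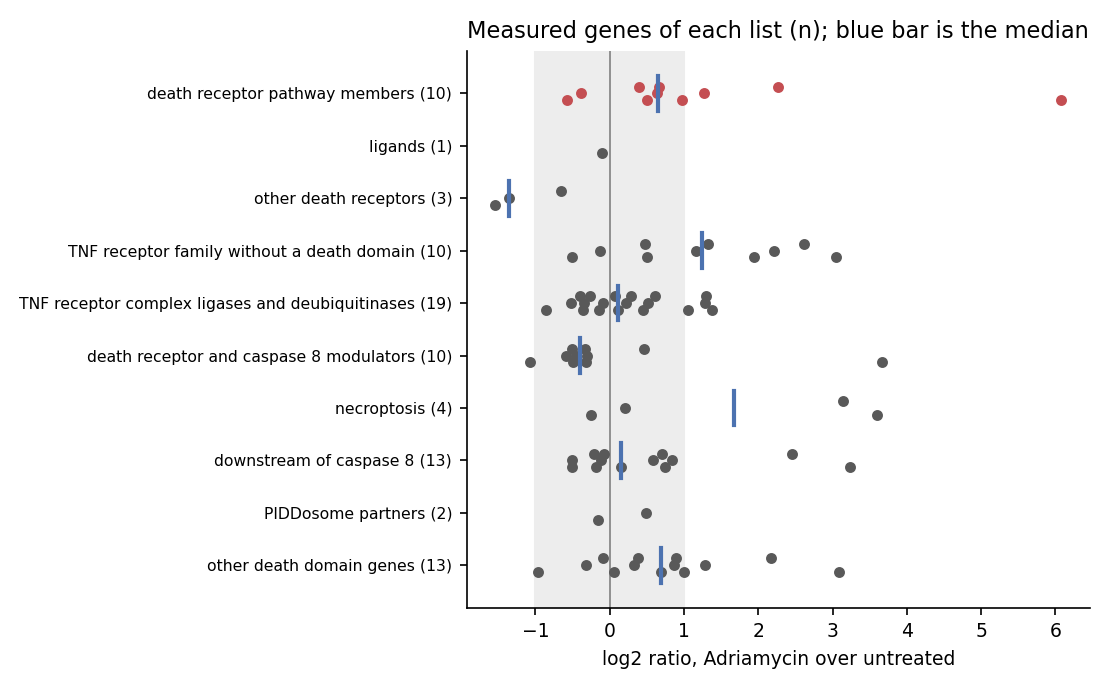
Log2 ratio (x axis) of each measured gene in the 10 members (red) and in the 9 lists of other pathway genes (dark grey, number of measured genes in parentheses), with a blue bar at the median of lists of at least 3 genes and a grey band under 2-fold. Other death receptors lie left of zero, with a median of -1.35, while TNF receptor family genes without a death domain have a median of 1.25.

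Ligases and deubiquitinases of the TNF receptor complex, which help set whether RIPK1 signals survival or death, were listed together with adaptors and kinases of that complex. Of these 19 genes, 4 were at least 2-fold higher and 0 lower, with a median of 0.11. Cyld, the deubiquitinase that favours death signalling, had 1057 and 2800 reads (1.38, 1.27 to 1.48). Rbck1 (HOIL-1), a subunit of the linear ubiquitin ligase, had 7168 and 17847 reads (1.29), while its partners Rnf31 (3592 and 2768 reads, -0.40) and Sharpin (1239 and 1330 reads, 0.07) did not reach 2-fold. Traf5, an adaptor of this complex, had 58 and 146 reads (1.30). Birc2 and Birc3, the ligases cIAP1 and cIAP2 that ubiquitinate RIPK1, had log2 ratios of -0.51 and -0.86.

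Modulators of death receptors and caspase 8 included 1 gene at least 2-fold higher and 1 at least 2-fold lower among 10, and their median was -0.39. Faim2, an inhibitor of Fas-induced death best known from neurons, had 57 and 741 reads, giving a log2 ratio of 3.66 (3.28 to 4.09). Cul3, a ubiquitin ligase scaffold that acts on caspase 8, had 6874 and 3331 reads (-1.07, -1.13 to -1.01). In the necroptosis list 2 of 4 were higher, Zbp1 (47 and 587 reads, 3.60) and Mlkl, the pore-forming executor (23 and 211 reads, 3.14). Ripk3, the kinase that activates MLKL, had 1039 and 887 reads (-0.26).

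Downstream of caspase 8, 2 of 13 genes were at least 2-fold higher and 0 lower, with a median of 0.16. Dffb, the nuclease that cuts DNA in apoptotic cells, had 477 and 4579 reads, giving a log2 ratio of 3.23 (3.10 to 3.37). Its inhibitor Dffa had 1237 and 2057 reads (0.71, 0.60 to 0.81). Apaf1, the core of the apoptosome, had 2595 and 14481 reads (2.45). Bid, the substrate that carries the caspase 8 signal to mitochondria, had 2115 and 1864 reads (-0.21). Casp6, another caspase gene, had 407 and 463 reads (0.16).

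Further genes whose products carry a death domain, outside receptor-to-caspase signalling, had 4 of 13 at least 2-fold higher and 0 lower, with a median of 0.70. Edaradd, the adaptor of the ectodysplasin receptor, had 33 and 291 reads (3.09, 2.59 to 3.68). Unc5a, a netrin receptor, had 186 and 859 reads (2.18), and the death-associated kinase gene Dapk1 had 3874 and 9598 (1.28). Exons of Unc5a share 34 bases with Hk3 on the opposite strand (20 and 7 reads). Larger ratios than that of Pidd1 were thus found in several of these lists. The ratio of Fas was the largest among the 10 members and the 75 measured pathway genes. Edar, under the level for measured genes, had a larger log2 ratio (6.70), which rests on 0 untreated reads.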

How the data were processed

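Each of the 2 deposited tables holds unnormalized read counts by gene. They were made with featureCounts 2.0.3 from paired-end reads, on exons of annotation release 105 of GRCm39, per the file headers. Both mates had to align, no strand option was set, and mates were not joined into 1 fragment. The submitters' processing notes list HISAT2 2.0.4, Trim Galore 0.3.4, FastQC, DESeq2 1.16.1 and another counter version, featureCounts 1.6.0, with builds mm9 and mm10. Positions follow the headers. The sources used here do not say how RNA was selected.

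Symbols came from GENCODE M21 by Ensembl identifier (52081 of 55414 matched). TMM factors from edgeR 4.0.16 in R 4.3.3 (0.951 untreated, 1.05 Adriamycin) scaled the library sizes. CPM, log2 ratios with 0.5 read added as pseudocount in proportion to depth, and exact 95% conditional binomial intervals (Clopper-Pearson) were computed with Python 3.11.15 and scipy 1.17.1, and tested on simulated data. The simulated counts were independent, without mates counted as separate reads, so the intervals were not tested for that. A gene with a ratio of at least 2-fold was called higher or lower. Levels between genes were compared per kb of exonic length as the tables give it. Alternatives were total counts, upper-quartile factors, DESeq2 1.42.0 size factors, a pseudocount of 5, no filter, counts divided by 2 and a 1.5-fold size.

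The members and lists were chosen with earlier results of these data known. Named genes are the 10 members, up to 3 higher and 3 lower measured genes of each list, the 4 genes nearest Fas, and genes whose exons overlap those of a member. The other pathway genes named, which did not reach 2-fold, were not measured or are partners or paralogs of a named gene. Tnfrsf22 and the neighbours were named after their values were seen. Some genes of the lists are not reported here.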

Additional observations from a re-analysis of the deposited data

How the results depend on the processing

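With 1 library per condition no replicate could be left out. No paired analysis was possible because each condition has 1 library. The count of members at least 2-fold higher was 3, and 4 with total counts, when Tnfrsf10b (log2 ratio 1.12) passed the size. With the size set at 1.5-fold it was 6, beside 25.7% of all measured genes. The count of lower members was 0 under each of the 7 alternatives, 1.5-fold included. Pathway genes at least 2-fold lower numbered 3, and 6 at 1.5-fold, beside 18.9% of all measured genes. No member changed direction under any alternative. Total counts moved the median log2 ratio of all measured genes from -0.03 to 0.12 and upper-quartile factors to -0.15, and the members shifted with it by 0.14 and -0.12. A pseudocount of 5 reads took Fas from 6.08 to 5.62, and without Fas the members' median was 0.64 (chosen after seeing the data). Depth limits Casp8 and the untreated level of Fas most, with 64 and 11 reads.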

Other observations

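Of the 86 other pathway genes, 11 lay under the level of a mean of 1 CPM, and 5 of these had 0 reads in both libraries. Among the rest, named here after their values were seen, Edar, the ectodysplasin receptor and a death receptor, had 0 reads untreated and 52 with Adriamycin. Set against a floor of 3 untreated reads, this is 17.0-fold higher, with the 52 reads taken as exact. The 95% counting interval of Edar began lower, at a log2 ratio of 3.74, and at 2.69 with counts divided by 2. Edaradd, the adaptor gene of Edar, was measured and was higher as well, while the ligand gene Eda had 146 and 139 reads. Tnfrsf26, a close relative of Tnfrsf23, had 7 and 33 reads (log2 ratio 2.13, 95% counting interval 1.01 to 3.63). These rest on few untreated reads and on 1 library per condition.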
